A study of Homo sapiens with 12 samples.

Results

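The kinetochore and spindle checkpoint genes were followed in K562 cells treated with FT671, a compound that blocks the ubiquitin-removing enzyme USP7. The group was set by name, as the protein-coding genes whose symbol begins with CENP and a further capital letter, plus 27 named genes of the outer kinetochore, the SKA complex, the spindle checkpoint, the chromosomal passenger complex and the mitotic kinases. This gave 52 genes, 25 by the CENP pattern and 27 by name, of 60609 genes listed. K562 is an established human line of chronic myeloid leukemia cells that carries the BCR-ABL1 fusion. RNA-seq was available for 3 DMSO-treated and 3 FT671-treated cultures, the latter at 10 μM, both for 48 h and numbered 1, 2 and 3 in each group. Both groups are this line alone, so they model 1 leukemia in culture, and the comparison asks how blocking USP7 alters transcript levels. The paper speaks of independent experiments, whereas the labels do not say how the cultures were made, so the p-values below measure the spread between these samples.

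The kinetochore is the protein assembly that builds on centromeric chromatin and ties each chromosome to spindle microtubules in mitosis. Its inner layer, the constitutive centromere network, sits on nucleosomes that carry the histone H3 variant CENP-A, and its outer layer, the KMN network of KNL1, the MIS12 complex and the NDC80 complex, grips the microtubule. Kinetochores without microtubules recruit BUB and MAD proteins, which hold CDC20 and so keep the anaphase-promoting complex inactive, while Aurora B in the chromosomal passenger complex loosens wrong attachments. Many of these genes are transcribed mostly in G2 and mitosis, through promoters that hold a cell cycle genes homology region and CCAAT boxes. In bulk RNA, fewer cells in G2 or mitosis and less RNA per cell cannot be told apart.

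Library totals lay between 4555220 and 14250500 counts, so that 3 counts, taken as the floor of detection, corresponded to 0.211 to 0.659 CPM (counts scaled to library size). These limits cover counting error only. No library copied another, since chi-square per degree of freedom between replicates was 2.07 to 8.73. Markers of the K562 line were present. Of 10 defining genes 9 passed the filter on low counts, HBE1 being too low, and together the 10 reached 1280 to 1317 CPM in DMSO and 1154 to 1196 CPM in FT671. Of 5 monocyte or granulocyte markers ELANE was at 0 in every library, and the sum of the 5, nearly all ITGAM, was 7.2 to 8.69 CPM in DMSO and 3.25 to 5.45 CPM in FT671. The 2 T cell markers summed to 16.8 to 20.5 CPM in DMSO and 23.7 to 29.3 CPM in FT671, and the 2 B cell markers, of which MS4A1 was at 0, to 1.48 to 3.66 and 2.35 to 3.55 CPM. The 4 fibroblast or epithelial markers, nearly all of it KRT8 and EPCAM, summed to 299 to 344 CPM in DMSO and 396 to 422 CPM in FT671. The part of these differences in the results below was not tested.

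The kinetochore genes moved in both directions after FT671. SPC25, CENPB, PLK1 and AURKA fell most, and CENPX rose most. The shares of the group that passed the tests lay on both sides of those of all genes. With so few genes the counts below describe the group and do not set it apart. The counts by role stand beside the same shares of all genes, and none is read as particular to a role. Of the 46 genes with enough counts to be tested, 10 (21.7%) were lower at an adjusted p of 0.05, beside 26.5% of all 13895 genes tested. Another 14 (30.4%) were higher, beside 23.6% of all genes, and 22 (47.8%) passed the threshold in neither direction. At the stricter threshold of 1e-05, which the study's methods use, 4 genes (8.7%) were lower, beside 4.13% of all genes, and none was higher, beside 1.79%. By edgeR the number higher at 1e-05 was 0, whereas DESeq2's Wald test gave 1, and 15 were higher at an unadjusted p of 0.05. Every FT671 library lay below every DMSO library for 13 genes (28.3%, beside 30.3% of all genes) and above for 12 (26.1%, beside 26.8%). The median log2 fold change was -0.055 over the 46 genes and -0.010 over all genes, and 24 of the 46 values were negative. Fold changes among them spanned -2.35 to 0.79 on the log2 scale, against a 5th and 95th percentile of -1.11 and 0.91 over all genes. Summed over the group, expression was 3930, 4046 and 4218 CPM in DMSO replicates 1, 2 and 3 and 3848, 3971 and 4017 CPM in FT671 replicates 1, 2 and 3, so that the ranges of the sums overlapped. The number of higher genes depended on single libraries, being 5 without DMSO replicate 1, 8 without DMSO replicate 2, 7 without FT671 replicate 2 and 8 without FT671 replicate 3. The number lower at 1e-05 was 2 without DMSO replicate 1, DMSO replicate 2 or FT671 replicate 1, 1 without FT671 replicate 2 or 3 and 7 without DMSO replicate 3, and 5 genes were higher at 1e-05 without DMSO replicate 3. The numbers over all genes shifted the same way, from 574 lower at 1e-05 to 251, 300, 231, 184 and 73 without DMSO replicates 1 and 2 and FT671 replicates 1, 2 and 3, and to 1501 without DMSO replicate 3. The share of all genes higher at 0.05 was 19.8%, 21.3%, 18.4% and 18.9% without DMSO replicates 1 and 2 and FT671 replicates 2 and 3.

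**Figure D1:**
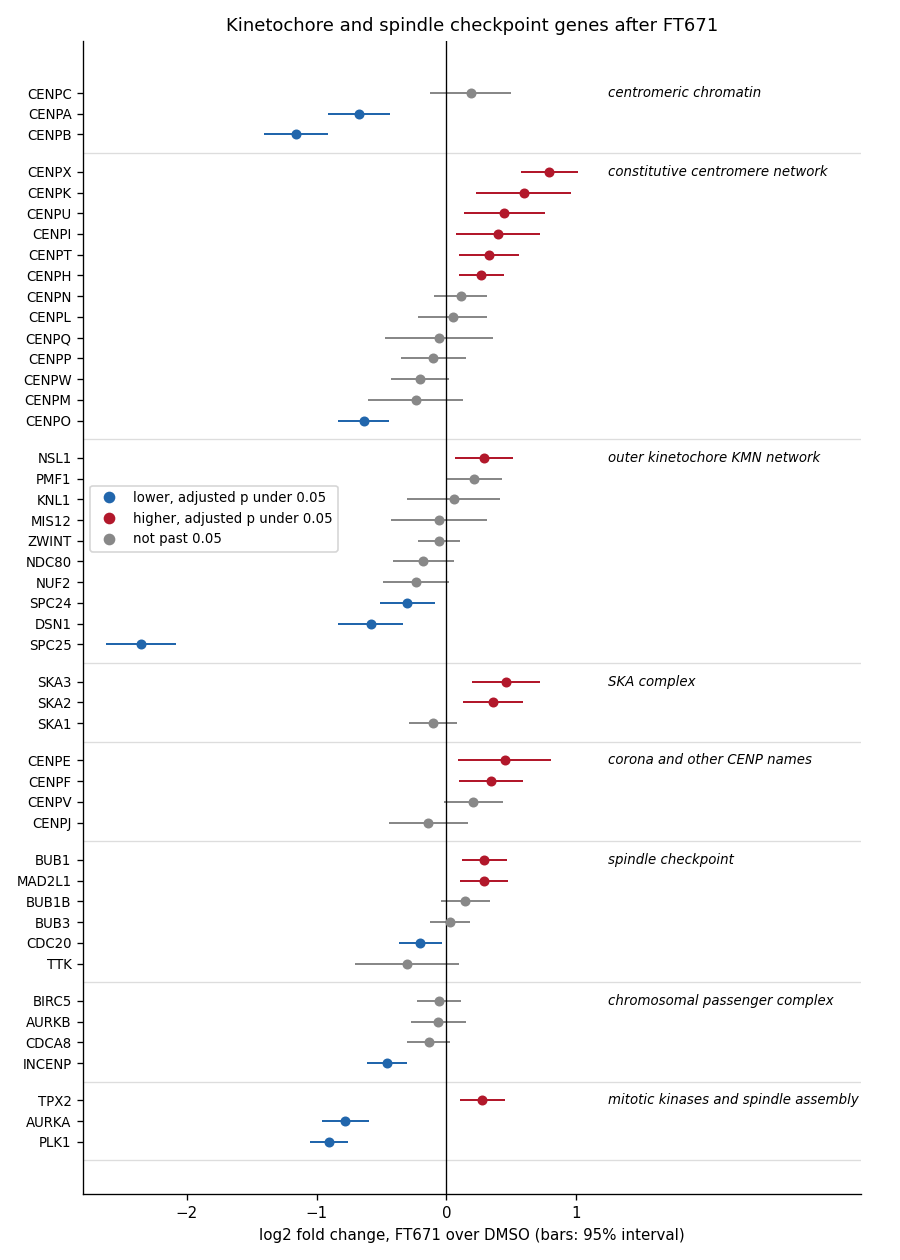
Log2 fold change of FT671 over DMSO for the 46 tested kinetochore and spindle checkpoint genes, grouped by role, with points for the edgeR estimate and bars for its 95% interval (3 libraries a group). SPC25 stands alone at -2.35 and most genes lie within 0.5 of 0. The constitutive centromere network, 13 of the 46 tested genes, holds 6 of the 14 higher genes. Of these 6 only CENPX kept its call in all 16 alternative analyses.

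The promoters of 5 genes are shown because the genes share cell cycle elements and moved in different directions. SPC25, PLK1, CENPA and INCENP fell and BUB1 rose. Each line gives the 120 bases before the RefSeq transcription start (GRCh38.p14), 5′ to 3′ along the gene. Capitals mark the cell cycle genes homology region (TTTGAA or TTCGAA), the CCAAT box (CCAAT) and the E2F core (GCGGGAA or GCGCGAA), each searched on both strands. A box on the other strand therefore reads as ATTGG. The first region was chr2:168890431-168890550 (minus strand), the second chr16:23678769-23678888 (plus), the third chr2:26785936-26786055 (plus), the fourth chr11:62123891-62124010 (plus) and the fifth chr2:110678064-110678183 (minus).
SPC25: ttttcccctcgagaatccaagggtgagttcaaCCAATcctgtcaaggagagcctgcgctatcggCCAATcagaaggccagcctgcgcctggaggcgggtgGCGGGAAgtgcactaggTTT
PLK1: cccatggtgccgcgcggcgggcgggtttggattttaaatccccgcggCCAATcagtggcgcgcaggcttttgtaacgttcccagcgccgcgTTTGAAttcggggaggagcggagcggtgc
CENPA: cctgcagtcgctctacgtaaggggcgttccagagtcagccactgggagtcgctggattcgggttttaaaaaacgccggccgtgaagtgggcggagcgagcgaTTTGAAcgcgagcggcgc
INCENP: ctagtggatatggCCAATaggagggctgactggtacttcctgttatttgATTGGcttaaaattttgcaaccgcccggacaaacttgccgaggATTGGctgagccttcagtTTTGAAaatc
BUB1: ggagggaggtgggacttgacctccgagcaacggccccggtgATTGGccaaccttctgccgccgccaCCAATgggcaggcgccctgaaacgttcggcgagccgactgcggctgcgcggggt
In SPC25 the last 3 capitals begin a TTTGAA that runs over the start, after 2 CCAAT boxes and an E2F core. PLK1 holds a CCAAT box 73 bases and a TTTGAA 29 bases before its start. CENPA has a TTTGAA 18 bases before the start, and INCENP has one 10 bases before it together with 3 CCAAT boxes. BUB1 has 2 CCAAT boxes in the printed stretch, and its TTCGAA, a sequence that reads the same on both strands, lies just after the start.

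Over windows from 250 bases before to 50 bases after the start, 42 of the 52 genes had a RefSeq promoter. The homology region was found in 20 of these 42 (47.6%), beside 16.6% of all 27305 promoters. The CCAAT box was found in 59.5%, beside 35.7% of all, and the E2F core in 28.6%, beside 8.6%. Both the homology region and the CCAAT box were in 33.3% of the group and in 6.58% of all promoters. Among the genes that fell, 6 of 9 with a promoter held the homology region, as did 4 of 12 that rose and 9 of 15 that passed in neither direction. For the CCAAT box these numbers were 6 of 9, 7 of 12 and 9 of 15. No promoter was given for BIRC5, CENPH, CENPL, CENPM, CENPJ, AURKA, TPX2, KNL1, BUB3 and TTK. A match describes letters in a window and was not tested as a binding site.

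Centromeric chromatin was represented by 3 genes, of which 2 fell. CENPB (ENSG00000125817, chr20:3783851-3786740) encodes the protein that binds the CENP-B box of alpha satellite DNA. Its expression was 63.0, 61.4 and 51.2 CPM in DMSO replicates 1, 2 and 3 and 29.5, 26.2 and 24.4 CPM in FT671 replicates 1, 2 and 3. All FT671 libraries thus lay well below all DMSO libraries. CENPB fell 2.23-fold, from 58.5 ± 6.40 to 26.7 ± 2.61 CPM (SD, n = 3), a log2 fold change of -1.16 (SE 0.114, adjusted p = 2.30e-06). This value passed 1e-05 without DMSO replicate 3 but was 2.56e-05 without DMSO replicate 1, 1.87e-05 without DMSO replicate 2, and 1.48e-05, 4.49e-05 and 1.09e-04 without FT671 replicates 1, 2 and 3. CENPA, the centromeric histone H3 variant itself, fell from 33.6 ± 3.22 to 21.3 ± 0.572 CPM, by 0.67 on the log2 scale (adjusted p = 2.11e-04). It shares 7.08% of its exon bases with SLC35F6, a gene of the same strand with a log2 fold change of 0.14 (adjusted p = 0.168). CENPC, which bridges CENP-A nucleosomes and the outer kinetochore, was at 21.7, 16.8 and 24.2 CPM in DMSO and 21.3, 21.3 and 26.6 CPM in FT671. These groups overlapped, with a log2 fold change of 0.19 (SE 0.146, 95% interval -0.13 to 0.50, adjusted p = 0.303).

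The constitutive centromere network listed 14 genes, 13 of them tested. Here 6 rose and 1 fell, beside 23.6% higher and 26.5% lower of all genes, and 6 passed in neither direction (median log2 fold change 0.11). CENPX (ENSG00000169689, chr17:82018702-82024107), a histone-fold protein that pairs with CENP-S and joins CENP-T and CENP-W, rose most. It was at 64.0, 73.6 and 54.5 CPM in DMSO and at 114, 103 and 118 CPM in FT671, with no overlap. This was a 1.73-fold rise from 64.1 ± 9.56 to 112 ± 7.42 CPM (SD, n = 3), or 0.79 on the log2 scale (SE 0.102, adjusted p = 2.53e-05). CENPX shares 2.81% of its exon bases with LRRC45 on the opposite strand, which had a log2 fold change of -0.64 (adjusted p = 0.0538). CENPO (ENSG00000138092, chr2:24793136-24822376), of the CENP-O/P/Q/U/R module, was the member that fell. Its values were 76.8, 76.2 and 71.5 CPM in DMSO and 49.7, 43.7 and 50.8 CPM in FT671, again without overlap, and it fell by 0.64 on the log2 scale (SE 0.0904, adjusted p = 5.71e-05). CENPO shares 27% of its exon bases with ADCY3 on the opposite strand, which fell by 0.50 (adjusted p = 0.00206). It shares 4.64% with PTRHD1, also on the opposite strand, which rose by 0.29 (adjusted p = 0.0426). Without a stated strand setting reads of these genes cannot be told apart.

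Of the other genes that rose in this network, CENPH, CENPI and CENPK belong to the CENP-H/I/K module, CENPU to the same module as CENPO, and CENPT is the DNA-bound arm that recruits the NDC80 complex. CENPK rose by 0.60 (adjusted p = 0.00980), CENPU by 0.45 (0.0202), CENPI by 0.40 (0.0384), CENPT by 0.33 (0.0200) and CENPH by 0.27 (0.0117) on the log2 scale. CENPT shares exon bases with TSNAXIP1, THAP11 and NUTF2 on the opposite strand. Their log2 fold changes were 0.36 (adjusted p = 0.0991), -0.23 (0.165) and 0.40 (7.12e-04). CENPU shares exon bases with PRIMPOL on the opposite strand, which had a log2 fold change of 0.11 (adjusted p = 0.432). As for CENPO, reads of these genes cannot be told apart without a stated strand setting. For CENPK and CENPU, DMSO replicate 3 sat near the FT671 libraries. CENPK was at 14.7, 14.3 and 24.4 CPM in DMSO and at 24.4, 27.1 and 25.6 CPM in FT671. Its adjusted p was 0.0648 without DMSO replicate 1 and 1.16e-06 without DMSO replicate 3. The CENPU groups overlapped, with 37.0, 34.4 and 56.0 CPM in DMSO and 55.1, 57.7 and 56.8 CPM in FT671. Its adjusted p was 3.61e-07 without DMSO replicate 3, but 0.1, 0.0910, 0.0620 and 0.0680 without DMSO replicates 1 and 2 and FT671 replicates 2 and 3. Other calls lost with a library left out were CENPT (0.0858 without FT671 replicate 1), CENPH (0.0686 without DMSO replicate 1 and 0.0874 without FT671 replicate 2) and CENPI (0.114, 0.104, 0.0606, 0.0942 and 0.102 without DMSO replicates 1 and 2 and FT671 replicates 1, 2 and 3). CENPH also missed 0.05 with the correction for exon length (0.0930) and without a filter on low counts (0.0592), and CENPI with DESeq2's Wald test (0.187), library totals alone (0.0574) and no filter (0.153). CENPI had the lowest level per length among the 46 tested genes, at 1.15 ± 0.0841 RPKM (CPM per kilobase of exon) in DMSO. The 6 network genes that passed in neither direction were CENPM (-0.24), CENPW (-0.20), CENPP (-0.10), CENPQ (-0.05), CENPL (0.05) and CENPN (0.11), all log2 fold changes. CENPP shares 39.9% of its exon bases with IPPK on the opposite strand, which had a log2 fold change of -0.36 (adjusted p = 0.0518). CENPM (13.3 to 19.4 CPM in DMSO) reached an adjusted p of 0.0271 at -0.37 without DMSO replicate 3.

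In the outer kinetochore KMN network 3 of 10 genes fell, 1 rose and 6 passed in neither direction (median log2 fold change -0.12). SPC25 (ENSG00000152253, chr2:168834132-168913371), a subunit of the 4-protein NDC80 complex whose promoter is shown above, changed more than any other kinetochore gene. It was at 41.5, 44.2 and 48.1 CPM in DMSO replicates 1, 2 and 3 and at 8.44, 7.58 and 9.47 CPM in FT671 replicates 1, 2 and 3, from 599, 483 and 260 counts and 38, 42 and 106 counts. The FT671 libraries held about the same low level, far from the DMSO libraries. SPC25 fell 5.11-fold, from 44.6 ± 3.30 to 8.50 ± 0.949 CPM (SD, n = 3), with a log2 fold change of -2.35 (SE 0.127, adjusted p = 1.96e-08). It remained past 1e-05 in all 16 alternative analyses, with log2 fold changes from -2.53 to -2.28. No annotated exon of another gene overlaps its exons.

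The other 3 subunits of the NDC80 complex showed far smaller differences than SPC25. SPC24, its direct partner at the inner end of the complex, fell by 0.30 on the log2 scale (adjusted p = 0.0215), from 60.5 ± 6.49 to 49.7 ± 2.20 CPM. That call was lost without DMSO replicates 1 and 2 and FT671 replicates 2 and 3 (adjusted p = 0.0881, 0.0990, 0.0859 and 0.0873). NDC80, the microtubule-binding subunit, had a log2 fold change of -0.18 (95% interval -0.41 to 0.06, adjusted p = 0.203), and NUF2, its partner, of -0.23 (95% interval -0.49 to 0.02, adjusted p = 0.117). With the GC correction both passed as lower, NDC80 at -0.18 (adjusted p = 0.0457) and NUF2 at -0.27 (0.0234). In the MIS12 complex, DSN1 fell by 0.58 (adjusted p = 9.17e-04), from 24.8 ± 1.73 to 16.2 ± 1.04 CPM. NSL1, in the same complex, was at 43.7, 39.1 and 41.4 CPM in DMSO and at 45.1, 49.4 and 56.2 CPM in FT671. It rose by 0.29 (SE 0.104, adjusted p = 0.0312), a call lost without DMSO replicate 2 (0.106), FT671 replicate 2 (0.0664) and FT671 replicate 3 (0.200). The call was also lost with library totals alone, with DESeq2's Wald test and without a filter on low counts. The remaining subunits MIS12 (-0.06) and PMF1 (0.22), the scaffold KNL1 (0.06) and its partner ZWINT (-0.06) passed in neither direction. Leaving out 1 library gave PMF1 an adjusted p of 0.0402 (FT671 replicate 1) and KNL1 one of 7.80e-04 at 0.33 (DMSO replicate 3).

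**Figure D2:**
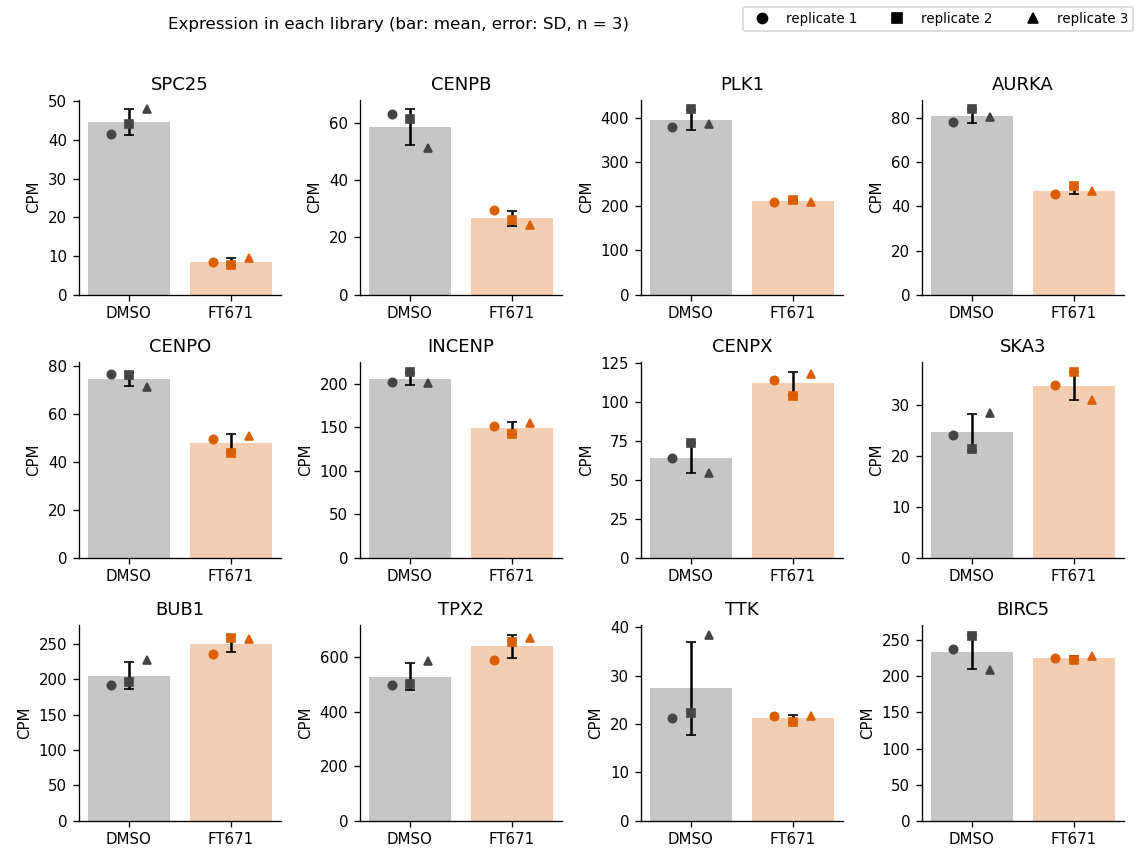
Expression (CPM, linear axes from 0) of 12 genes in each of the 6 libraries, with bars for group means, error lines for SD (n = 3) and symbols for replicate numbers. SPC25, CENPB, PLK1, AURKA, CENPO and INCENP are lower and CENPX, SKA3, BUB1 and TPX2 higher in every FT671 library than in every DMSO library, whereas TTK and BIRC5 overlap, and the DMSO bar of TTK is lifted by replicate 3 at 38.4 CPM.

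The SKA complex, which tracks microtubule ends beside the NDC80 complex, had 2 of 3 genes higher. SKA3 was at 24.2, 21.4 and 28.5 CPM in DMSO and at 34.0, 36.4 and 30.9 CPM in FT671, without overlap. It rose by 0.46 on the log2 scale (SE 0.122, adjusted p = 0.00616) and stayed past 0.05 in all 16 alternatives. SKA2 rose by 0.36 (adjusted p = 0.0135), with adjusted p-values of 0.0658 and 0.0649 without DMSO replicates 1 and 2. SKA1 was at 116, 121 and 134 CPM in DMSO and 105, 126 and 114 CPM in FT671, with a log2 fold change of -0.10 (SE 0.0862, 95% interval -0.29 to 0.08, adjusted p = 0.346).

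Among the 8 genes with other CENP names, 4 were tested and 2 rose. CENPE, the kinesin of the fibrous corona, was at 32.8, 30.1 and 53.2 CPM in DMSO and at 47.1, 52.9 and 53.5 CPM in FT671. The groups overlapped because DMSO replicate 3 matched the FT671 libraries. CENPE rose by 0.45 (SE 0.167, adjusted p = 0.0362), with adjusted p-values of 0.158 and 0.152 without DMSO replicates 1 and 2, 0.0967 and 0.129 without FT671 replicates 2 and 3, and 3.46e-07 without DMSO replicate 3. CENPF, a large corona protein that peaks in G2, had the same pattern. It rose by 0.34 (adjusted p = 0.0230), with adjusted p-values of 0.105, 0.0906 and 0.116 without DMSO replicate 1, DMSO replicate 2 and FT671 replicate 3, and 2.11e-07 without DMSO replicate 3. CENPJ, a centriole assembly protein that shares only the name, was at 52.2, 47.7 and 73.4 CPM in DMSO and at 45.1, 51.8 and 56.7 CPM in FT671 (log2 fold change -0.14, SE 0.142, 95% interval -0.44 to 0.17, adjusted p = 0.442). CENPV had a log2 fold change of 0.21 (95% interval -0.02 to 0.44, adjusted p = 0.119).

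The spindle checkpoint listed 7 genes, 6 of them tested, of which 2 rose and 1 fell (median log2 fold change 0.09). BUB1 (ENSG00000169679, chr2:110637528-110678063), the checkpoint kinase that also marks centromeric histone H2A, was at 192, 197 and 228 CPM in DMSO and at 237, 259 and 258 CPM in FT671. The groups did not overlap, although DMSO replicate 3 came close. BUB1 rose by 0.29 (SE 0.0800, adjusted p = 0.00722), a call kept in all 16 alternatives. MAD2L1, which encodes the MAD2 protein that captures CDC20, rose by 0.29 (adjusted p = 0.0115), from 48.4 ± 0.702 to 59.3 ± 1.40 CPM. The adjusted p was 0.0512 and 0.0508 without DMSO replicate 1 and FT671 replicate 2, and 0.0808 without a filter on low counts. CDC20, the activator of the anaphase-promoting complex that MAD2 holds, fell by 0.20 (adjusted p = 0.0448), from 261 ± 22.8 to 228 ± 9.43 CPM. Among the libraries left out in turn, the CDC20 call held for DMSO replicate 3 alone, since the adjusted p was 0.116 and 0.194 without DMSO replicates 1 and 2 and 0.0886, 0.0871 and 0.185 without FT671 replicates 1, 2 and 3. It was also lost with DESeq2's size factors (0.0744), DESeq2's Wald test (0.0779) and the GC correction (0.0815). TTK, the kinase that starts checkpoint signalling, was at 21.3, 22.4 and 38.4 CPM in DMSO and at 21.5, 20.4 and 21.6 CPM in FT671. Here 1 library, DMSO replicate 3, set the DMSO mean apart (log2 fold change -0.31, SE 0.187, 95% interval -0.71 to 0.10, adjusted p = 0.191). BUB1B (0.15, 95% interval -0.04 to 0.33) and BUB3 (0.03, 95% interval -0.13 to 0.18) passed in neither direction, BUB1B reaching an adjusted p of 0.0226 without DMSO replicate 3.

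Within the chromosomal passenger complex 1 of 4 genes fell. INCENP, the scaffold that activates Aurora B and whose promoter is shown above, was at 202, 214 and 200 CPM in DMSO and at 151, 142 and 155 CPM in FT671. It fell by 0.46 on the log2 scale (SE 0.0711, adjusted p = 1.23e-04), and the groups lay well apart. BIRC5, the survivin gene, was at 238, 256 and 209 CPM in DMSO and at 225, 223 and 228 CPM in FT671, with overlap and a log2 fold change of -0.06 (SE 0.0791, 95% interval -0.23 to 0.11, adjusted p = 0.558). AURKB, the kinase of the complex, had a log2 fold change of -0.06 (95% interval -0.27 to 0.15), and CDCA8, which encodes borealin, of -0.14 (95% interval -0.30 to 0.03). Without DMSO replicate 3 both passed 0.05, AURKB at -0.17 (adjusted p = 0.0354) and CDCA8 at -0.18 (0.0288).

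All 3 genes of the mitotic kinases and spindle assembly passed 0.05, 2 downward and 1 upward. PLK1 (ENSG00000166851, chr16:23677656-23690367), the Polo kinase that drives mitotic entry, kinetochore attachment and cytokinesis, was at 379, 421 and 387 CPM in DMSO and at 210, 215 and 209 CPM in FT671. The FT671 libraries lay close together and far below DMSO. PLK1 fell 1.87-fold, from 396 ± 22.1 to 211 ± 3.03 CPM (SD, n = 3), a log2 fold change of -0.90 (SE 0.0696, adjusted p = 2.41e-07). It missed 1e-05 without FT671 replicates 2 and 3 (adjusted p = 1.01e-05 and 2.15e-05). PLK1 shares 11.6% of its exon bases with the lncRNA ENSG00000261266 on the opposite strand, which fell by 0.83 (adjusted p = 2.27e-04), and reads of this pair cannot be told apart either. AURKA (ENSG00000087586, chr20:56369389-56392337), the spindle pole kinase that activates PLK1, was at 78.2, 84.3 and 80.6 CPM in DMSO and at 45.5, 49.1 and 47.0 CPM in FT671. It fell 1.71-fold, from 81.0 ± 3.07 to 47.2 ± 1.78 CPM (SD, n = 3), a log2 fold change of -0.78 (SE 0.0845, adjusted p = 5.55e-06). It passed 0.05 in all 16 alternatives, but missed 1e-05 without DMSO replicates 1 and 2 (4.65e-05 and 5.66e-05) and without FT671 replicates 1, 2 and 3 (7.99e-05, 8.50e-05 and 1.94e-04). TPX2, which activates AURKA and carries it to the spindle, went the other way. It was at 499, 502 and 586 CPM in DMSO and at 591, 656 and 672 CPM in FT671, and rose by 0.28 (SE 0.0805, adjusted p = 0.0108). Its call was lost without DMSO replicate 1 (0.0587), FT671 replicate 2 (0.0544) and FT671 replicate 3 (0.0620).

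The ratio of RPKM between 2 genes was taken within each library, where the scaling of libraries cancels, for subunits of one complex, for a kinase and its activator, and for pairs of mitotic kinases (AURKA with AURKB, PLK1 with BUB1). The 9 pairs were chosen after the fold changes were seen. Their directions, lack of overlap and p-values therefore add no evidence. Since RPKM divide by the union of annotated exons, the level of a ratio depends on the annotation and does not give subunit proportions. The ratio of SPC25 to NDC80 was 1.07, 1.15 and 0.951 in DMSO and 0.249, 0.186 and 0.257 in FT671. SPC25 over NUF2 went from 2.76 ± 0.242 to 0.622 ± 0.103 (SD, n = 3) and SPC25 over SPC24 from 1.16 ± 0.215 to 0.266 ± 0.0319. AURKA over its activator TPX2 went from 0.190 ± 0.0189 to 0.0910 ± 0.00445, and AURKA over AURKB from 0.608 ± 0.0937 to 0.362 ± 0.0359. PLK1 over BUB1 went from 2.57 ± 0.295 to 1.12 ± 0.0540. DSN1 over NSL1 went from 3.04 ± 0.305 to 1.64 ± 0.0830, INCENP over BIRC5 from 0.754 ± 0.0579 to 0.567 ± 0.0196, and CENPX over CENPW, a fellow histone-fold protein, from 0.989 ± 0.151 to 1.99 ± 0.0674. No pair overlapped between the groups, and each had a p of 0.1 in an exact two-sided permutation test (0.1 after adjustment over the 9 pairs), the smallest that 3 against 3 libraries allow.

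**Figure D3:**
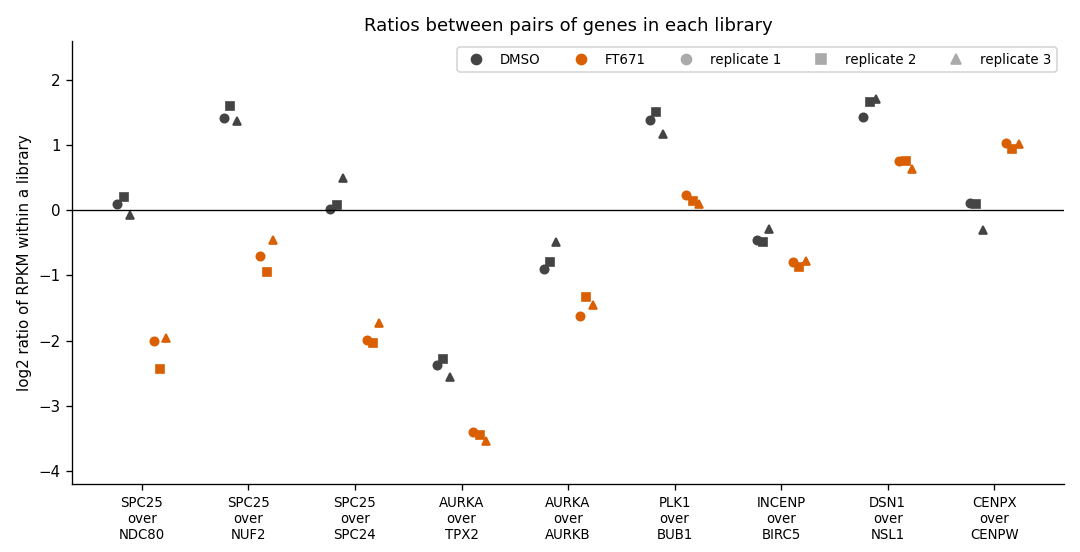
Log2 ratio of RPKM between 2 genes within each library for 9 pairs, with DMSO in grey, FT671 in orange and symbols for replicate numbers. The 3 ratios with SPC25 drop from near or above 0 to below it in FT671, AURKA drops against TPX2 and AURKB, and CENPX rises against CENPW.

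Levels per exon length spanned a wide range among the 46 tested genes. In DMSO, TPX2 (147 ± 13.6 RPKM) and CDC20 (130 ± 11.3 RPKM) were highest and CENPI was lowest. TPX2 and CDC20 held the first and second rank also in FT671. PLK1 went from the third rank at 83.1 ± 4.65 RPKM to rank 8 at 44.4 ± 0.638 RPKM, and CENPX from rank 11 at 41.8 ± 6.24 RPKM to rank 3 at 73.0 ± 4.85 RPKM. SPC25 moved furthest, from rank 15 of 46 at 24.4 ± 1.81 RPKM, beside NDC80 (23.2 ± 3.79) and SPC24 (21.3 ± 2.29), to rank 39 at 4.65 ± 0.519 RPKM. These ranks describe means, and neighbours such as AURKB, INCENP and CENPH at 46.2 ± 6.57, 46.1 ± 1.64 and 46.1 ± 2.44 RPKM in DMSO did not differ beyond their spread.

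**Figure D4:**
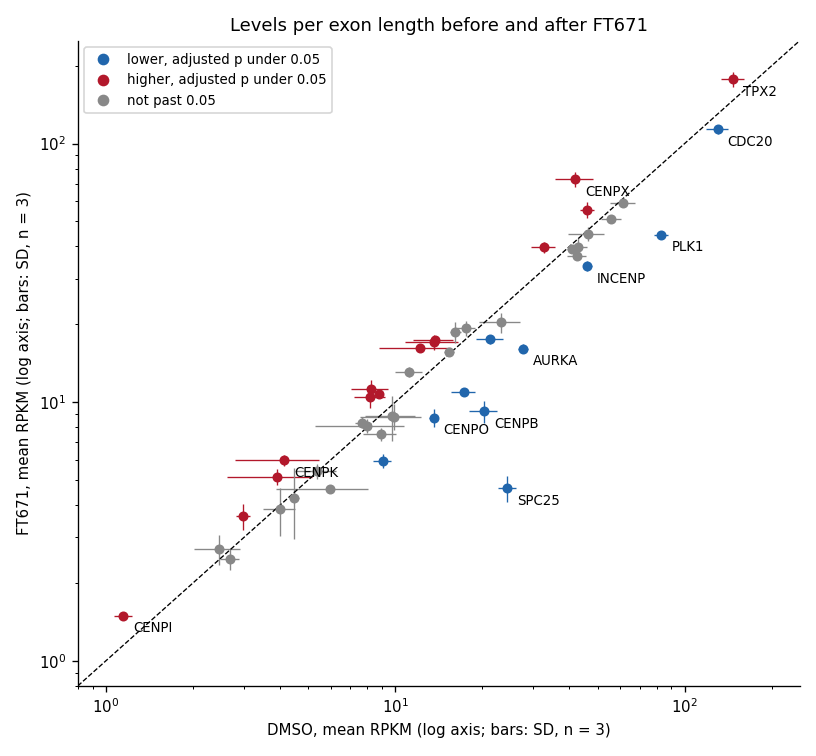
Mean level per exon length (RPKM, log axes) in DMSO and FT671 for the 46 tested genes, with error lines for SD (n = 3), colour for the call at an adjusted p of 0.05 and a dashed line of equal level. Most genes lie close to the line from CENPI at 1.15 RPKM to TPX2 at 147 RPKM in DMSO, and SPC25 lies furthest below it.

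Exon length and GC content of the tested genes are given as a description, with no test, and their ranges overlapped widely between the genes that fell, rose or passed in neither direction. GC content was taken from the longest transcript of each gene. Its median was 53.8% in the 10 that fell, 40.9% in the 14 that rose and 43.1% in the 22 others. Median exon length was 2864.5, 4913 and 3458 bases. Across the 46 genes the log2 fold change had a Spearman correlation of 0.328 with exon length, -0.361 with GC content and -0.141 with mean DMSO CPM, as a description over genes that share all 6 libraries. DMSO replicate 3 stood apart from the other libraries of its group over these genes. Its median absolute log2 deviation from the other DMSO libraries was 0.218, against 0.126 and 0.135 for DMSO replicates 1 and 2 and 0.0751 to 0.0775 for the FT671 libraries. Across the 46 genes its deviation had a Spearman correlation of -0.81 with GC content and of 0.443 with exon length. KNL1 (70.1, 62.1 and 113 CPM in DMSO), TTK, CENPK, CENPE, CENPU, CENPF and CENPJ were high in that library. MAD2L1 (47.6, 49.0 and 48.6 CPM) and MIS12 (14.3, 14.6 and 13.5 CPM) were not. The part of GC content in these differences was not tested. Without DMSO replicate 3, 16 genes were higher and 13 lower at 0.05, beside 25.7% and 27.5% of all genes. The median log2 fold change of the group was then 0.012. Correction of each library for GC content gave 17 higher and 11 lower genes at 0.05, beside 28.2% and 27.4% of all genes, and a median of 0.0072.

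The other 6 genes had too few counts to be tested. CENPS, the histone-fold partner of CENPX, had 3, 2 and 0 counts in DMSO and 3, 0 and 0 in FT671, and it shares 65.0% of its exon bases with the readthrough gene CENPS-CORT, which had at most 1 count in a library. MAD1L1, which encodes the kinetochore anchor of MAD2, had 13, 7 and 2 counts in DMSO and 4, 14 and 8 in FT671, and shares 43.2% of its exon bases with ENSG00000286192 on the same strand. How reads on such shared exons were counted was not given in the sources used here, and its part in these low counts was not tested. CENPVL1, CENPVL2 and CENPVL3, copies related to CENPV, had 0 counts in all 6 libraries, which allows up to 3 counts in each. In all, 18 of the 52 genes shared exon bases with another gene, 15 of them tested.

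The genes that act around the kinetochore were taken as lists chosen by function. Their counts at 0.05 stand beside 26.5% lower and 23.6% higher of all genes tested, and with so few genes a list no count is read as particular to it. Of the anaphase-promoting complex and its regulators, 5 of 17 tested genes fell and 3 rose (median log2 fold change -0.20). The listed gene UBE2C had 3, 0 and 0 counts in DMSO and 0, 0 and 0 in FT671, too few to be tested. FZR1, the activator used after mitosis, fell by 0.95 (adjusted p = 1.16e-04), FBXO5, the inhibitor EMI1, fell by 0.68 (4.48e-04), and the subunit ANAPC5 rose by 0.38 (5.31e-04). Of 8 genes of the Rod-Zw10-Zwilch complex and checkpoint partners, 2 rose and 1 fell (median 0.13). They were MAD2L1BP (0.48, adjusted p = 0.00537), which helps disassemble the checkpoint complex, ZWILCH (0.44, 0.00864) and HASPIN (-0.28, 0.0244), the kinase that places the passenger complex. HASPIN lost its call without DMSO replicates 1 and 2 (0.0543 and 0.0521) and FT671 replicates 1, 2 and 3 (0.0807, 0.0614 and 0.0551), and 4 genes of this list were higher without DMSO replicate 3. The list of CENP-A loading genes and CENP-R gave 4 of 8 higher and 1 lower (median 0.32). Its higher genes included ITGB3BP, the gene of CENP-R (0.41, adjusted p = 0.0280), which the CENP name pattern left out. Here RBBP7, a histone chaperone, rose by 0.51 (adjusted p = 5.22e-05) and MIS18A, which licenses loading, rose by 0.51 (4.81e-04), whereas HJURP, the chaperone that deposits CENP-A, fell by 0.53 (2.54e-04), as CENPA itself did. Without DMSO replicate 3 the number lower in this list was 2. Cohesin and its control had 4 of 17 lower and 1 higher (median -0.09), with PDS5B at -0.72 (adjusted p = 6.06e-04), MAU2 at -0.33 (0.0143) and PTTG1, which encodes securin, at 0.49 (1.90e-04). MAU2 lost its call without DMSO replicates 1 and 2 (0.0566 and 0.0640) and FT671 replicates 2 and 3 (0.0943 and 0.0585). MAU2 also missed 0.05 with the correction for exon length (adjusted p = 0.129). The number of cohesin genes lower was 2 without DMSO replicate 1 or FT671 replicate 1 and 1 without FT671 replicate 2 or 3, and 4 were higher without DMSO replicate 3. Condensin had 2 of 8 lower and 0 higher by edgeR (median -0.09), NCAPH2 at -0.53 (adjusted p = 0.00321) and NCAPD3 at -0.29 (0.00815). Of condensin genes 1 was higher at an unadjusted p of 0.05, 0 by DESeq2 and 3 without DMSO replicate 3.

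Genes of mitotic entry included 9 lower and 0 higher of 22 tested at 0.05 by edgeR (median log2 fold change -0.13), beside 26.5% lower and 23.6% higher of all genes. The number higher was also 0 at an unadjusted p of 0.05 and by DESeq2, but 2 without DMSO replicate 3. WEE1, the kinase that restrains CDK1, was at 88.2, 91.1 and 92.1 CPM in DMSO and at 49.1, 47.1 and 48.2 CPM in FT671, and fell by 0.91 (adjusted p = 8.99e-07). CDC25A, the opposing phosphatase, fell by 0.84 (adjusted p = 1.95e-06) and PKMYT1, another inhibitory kinase, fell by 0.73 (3.74e-05). Genes for inhibitors and for an activator of CDK1 were thus lower together. CCNB1 also fell, by 0.54 (adjusted p = 6.82e-05). The related phosphatase genes CDC25B (0.066, adjusted p = 0.479) and CDC25C (-0.054, 0.695) passed in neither direction. In S phase 6 of 16 fell and 2 rose (median -0.02), led by PCNA, the replication clamp, which went from 106, 117 and 115 CPM to 45.5, 38.8 and 40.7 CPM and fell by 1.44 (adjusted p = 5.15e-08). MCM3 fell by 0.45 (adjusted p = 6.76e-05) and MCM4 rose by 0.45 (1.11e-04), both of the replicative helicase, and without FT671 replicate 2 only 1 S phase gene was higher. The proliferation markers MKI67 (0.20, 95% interval -0.13 to 0.54, adjusted p = 0.298) and TOP2A (0.14, 95% interval -0.09 to 0.38, adjusted p = 0.288) passed in neither direction. DMSO replicate 3 was the highest library for both, at 268 CPM for MKI67 and 729 CPM for TOP2A, and without it both were higher after FT671 (0.47, adjusted p = 1.95e-06, and 0.31, adjusted p = 7.07e-05).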

How the data were processed

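RNA-seq counts of K562 cells treated with DMSO (n = 3) or 10 μM FT671 (n = 3) for 48 h were used. For each library the authors deposited raw read counts per gene, collected with STAR (two-pass mode, default parameters) on hg38 from paired-end reads of ribosomal-RNA-depleted RNA. The STAR version, the annotation release and the strand setting are not given in the sources used here. Gene identifiers (60609) were matched to GENCODE release 44 (60295 matched, 314 not), which gave symbols, positions and exon lengths. The 6 chromatin immunoprecipitation samples of the series were not analysed here.

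Genes were filtered with filterByExpr (13895 kept), scaled by TMM and tested with edgeR's quasi-likelihood test (edgeR 4.0.16, R 4.3.3) over all genes, without covariates, with Benjamini-Hochberg adjustment, at 0.05 and at the study's 1e-05. The standard error is the size of the log2 fold change over the square root of F. CPM use TMM-scaled totals, and RPKM divide these by the union exon length. Genes given in full are those past 1e-05 and the most positive and most negative of each role. Members and lists were chosen with earlier results of these data known. Alternatives were DESeq2's size factors and Wald test (DESeq2 1.42.0), library totals alone, no filter, at least 10 counts in every library, the replicate number as a block, loess corrections (span 0.3) for exon length and GC content, and leaving out each library. Promoters were RefSeq windows of 300 bases. The main edgeR fit, the block, the length correction and DESeq2's Wald test were tried on simulated counts, and the GC correction was not.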

Additional observations from a re-analysis of the deposited data

How the results depend on the processing

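Of the 24 genes past 0.05, 11 kept the call in all 16 alternatives (SPC25, CENPB, PLK1, AURKA, CENPA, CENPO, DSN1 and INCENP lower, BUB1, SKA3 and CENPX higher), 13 lost it in at least 1, and 0 changed sign. Another 11 genes gained a call in at least 1. The number lower at 0.05 (10) ranged from 8 to 13 with a library left out, and the number higher (14) from 5 to 16. The number lower at 1e-05 (4) was 7 without a filter and ranged from 1 to 7 with a library left out. The number higher at 1e-05 (0) was 1 by DESeq2's Wald test, without a filter and with the GC correction, in each case CENPX, and ranged from 0 to 5 with a library left out. The median log2 fold change (-0.055) was 0.0072 with the GC correction and ranged from -0.045 to 0.012 with a library left out. The cause of these shifts was not tested.

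The replicate numbers are shared by the groups, but the deviations of same-numbered libraries correlated at 0.115, -0.0605 and 0.14, so they were not taken as pairs. With the replicate block the numbers lower and higher at 0.05 were 10 and 13, those at 1e-05 4 and 1, and the median -0.047, and CENPI lost its call (0.38, adjusted p = 0.0667). The block with the GC correction gave 1 gene higher at 1e-05 and a median of 0.016, and with the length correction 2 higher at 1e-05.

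Only genes without a call took the other sign, 9 of them 19 times in all. With a library left out the log2 fold changes ranged from -0.030 (without DMSO replicate 2) to 0.16 for CENPL, from -0.16 to 0.076 (without FT671 replicate 2) for CENPQ, from -0.25 to 0.046 (without DMSO replicate 3) for CENPJ, from -0.10 (without DMSO replicate 2) to 0.33 for KNL1, from -0.24 to 0.10 (without FT671 replicate 1) for MIS12, and, with the upper end without DMSO replicate 2, from -0.17 to 3.33e-06 for AURKB and from -0.14 to 0.014 for BIRC5. The GC correction gave AURKB 0.010 and BIRC5 0.0040, and with the block 0.023 and 0.0079. The length correction gave CENPP 0.018, and 0.012 with the block. BUB3 was -0.0046 with library totals alone and -0.0095 without a filter. Total counts of 4555220 to 14250500 limit the precision of genes with few reads such as CENPI and CENPQ.

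The lists of surrounding genes were run under the same alternatives after the data were seen. With a library left out the numbers lower ranged from 0 to 1 for Rod-Zw10-Zwilch and partners. They ranged from 1 to 2 for CENP-A loading and CENP-R and from 1 to 3 for cohesin. In the same order, the numbers higher ranged from 2 to 4, 3 to 5 and 1 to 4. The numbers higher ranged from 0 to 3 for condensin, 0 to 2 for mitotic entry and proliferation markers, and 1 to 2 for S phase. Rod-Zw10-Zwilch partners had 0 lower by DESeq2's Wald test and with the GC correction. Cohesin had 2 lower with DESeq2's size factors and with the length correction (2 with the block) and 7 with the GC correction (7 with the block). Condensin had 1 higher with DESeq2's size factors, 2 with the length correction (2 with the block) and 1 with the GC correction (1 with the block). Mitotic entry had 1 higher and the proliferation markers 2 with the length correction and again when the block was added, and the latter 1 with the GC correction and block.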
